A study of Mus musculus with 2 samples.

Results

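The genes described here are the 10 that encode the subunits of the transcription factor NF-kB and its main inhibitors, taken by name from the 21878 genes in each of 2 tables of expression values. They are the subunit genes Nfkb1, Nfkb2, Rel, Rela and Relb, the classical IkB genes Nfkbia, Nfkbib and Nfkbie, the atypical IkB gene Bcl3, and Tnfaip3. All 10 were found, and all had a mean level of at least 1 FPKM over both libraries, the minimum for a gene to be called measured. FPKM is a read count scaled by gene length and by the size of the library, so levels of different genes can be compared within a library.

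Both libraries were made from primary chondrocytes of C57BL/6 mice, cells that build cartilage, which were cultured and infected with lentivirus. In shNC the virus carried a control hairpin and in shGpx4 a hairpin against Gpx4, the gene of a peroxidase that removes oxidised lipids from membranes. The sources used here do not give the age or sex of the mice, whether animals were pooled, or the hairpin sequences. The series set out to learn how GPX4 acts in these cells. With 1 library per group no difference could be tested against replicates, so each value describes these libraries only.

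NF-kB is a family of dimers that wait in the cytoplasm until a receptor signal releases them. The subunits Rela, Rel and Relb carry an activation domain, while Nfkb1 and Nfkb2 encode the precursors p105 and p100, which are shortened to the DNA-binding subunits p50 and p52. IkB proteins cover the nuclear import signal of the dimers until the IkB kinase complex marks them for destruction. Freed dimers switch on their own inhibitors, among them Nfkbia and Tnfaip3, which closes a negative feedback loop. In cartilage the pathway is known for its response to interleukin-1 and tumour necrosis factor, which includes the genes of matrix-degrading proteases.

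Promoter sequence is shown for the members with the highest and lowest ratios between the libraries, and for Nfkb2, because it holds the kind of DNA site that NF-kB binds. Windows run from 250 bases before to 50 after an annotated transcript start, on the strand of the gene, from the RefSeq annotation of GRCm38.p6. That start can differ from the outer end of the gene, as it does for Bcl3, Nfkb2 and Rela and for a Tnfaip3 window not shown here. Capitals mark matches to the 10-base NF-kB consensus (the kB site), searched on both strands. Overlapping matches were merged in the capitals. The window of Bcl3 lies at chr7:19822706-19823005 on the minus strand and that of Nfkbia at chr12:55492598-55492897 on the minus strand. The window of Tnfaip3 lies at chr10:19015361-19015660 on the minus strand and that of Nfkb2 at chr19:46304487-46304786 on the plus strand.
Bcl3: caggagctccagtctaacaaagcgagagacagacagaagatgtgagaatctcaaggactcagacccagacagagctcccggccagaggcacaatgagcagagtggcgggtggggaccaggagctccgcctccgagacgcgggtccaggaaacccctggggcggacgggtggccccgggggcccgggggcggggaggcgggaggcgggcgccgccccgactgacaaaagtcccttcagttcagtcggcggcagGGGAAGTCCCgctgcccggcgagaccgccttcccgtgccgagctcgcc
Nfkbia: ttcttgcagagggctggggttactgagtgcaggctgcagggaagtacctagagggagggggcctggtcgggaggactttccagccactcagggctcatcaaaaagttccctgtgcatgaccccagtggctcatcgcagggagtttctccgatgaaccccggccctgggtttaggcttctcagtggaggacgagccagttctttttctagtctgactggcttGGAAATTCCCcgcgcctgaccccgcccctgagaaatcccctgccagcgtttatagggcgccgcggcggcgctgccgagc
Tnfaip3: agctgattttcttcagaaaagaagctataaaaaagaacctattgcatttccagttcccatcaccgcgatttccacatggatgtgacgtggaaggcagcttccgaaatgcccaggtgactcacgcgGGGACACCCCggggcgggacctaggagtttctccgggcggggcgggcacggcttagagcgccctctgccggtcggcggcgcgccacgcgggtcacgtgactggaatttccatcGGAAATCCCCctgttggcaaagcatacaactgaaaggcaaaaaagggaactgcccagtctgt
Nfkb2: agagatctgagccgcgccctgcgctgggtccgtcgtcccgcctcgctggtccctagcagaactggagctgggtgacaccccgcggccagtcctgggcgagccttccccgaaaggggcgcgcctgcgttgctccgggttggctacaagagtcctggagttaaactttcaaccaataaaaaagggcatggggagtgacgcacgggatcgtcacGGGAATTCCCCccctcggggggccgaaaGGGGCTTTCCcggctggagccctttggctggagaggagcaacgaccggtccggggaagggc

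Bcl3 had 1 such run, from 2 to 11 bases after the annotated start, which reads as a match on both strands. The Nfkbia window held 1 match on the opposite strand, at -29 to -20. In Tnfaip3 a match on both strands lay at -125 to -116 and another, on the opposite strand, at -12 to -3. Nfkb2 had overlapping matches on both strands between -39 and -29, and a further one at -11 to -2. The table of promoters held windows for 8 of the 10 genes and none for Nfkb1 and Relb.

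A match was found in at least 1 window of 6 of those 8 genes. Among all measured genes with a window, 12.5% had one (1108 of 8888). In the remaining members, Rel carried the run GGGAAATCCC at -92 to -83, which reads as a match on both strands. An overlapping Rel match on the opposite strand lay at -91 to -82, and Nfkbie carried GGGGGATTCC at -106 to -97. Nfkb2 has windows at 2 further annotated starts, which share the site GGGACTTTCC at chr19:46305705-46305714. In 1 of them a match on the opposite strand also lay at -236 to -227. No window covers the outer end of the Nfkb2 locus, at chr19:46300994. No match was found in the Rela and Nfkbib windows, or in a second Tnfaip3 window, whose annotated start lies inside the gene. A match describes the letters only, and binding was not measured.

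**Figure D1:**
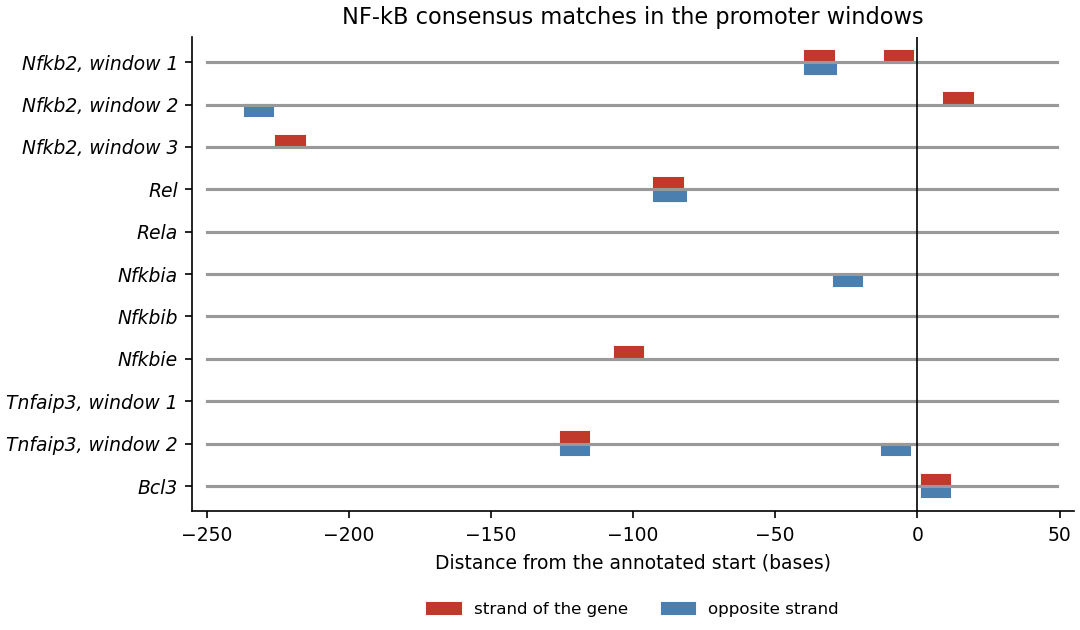
Positions of matches to the NF-kB consensus in 11 promoter windows of 8 genes, as distance in bases from the annotated transcript start (vertical line). Boxes above each line are matches on the strand of the gene and boxes below it are matches on the opposite strand; the Rela and Nfkbib windows and the first Tnfaip3 window hold none.

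As context for these genes, the library totals behind the FPKM values were 19729142 reads for shNC and 21313211 for shGpx4. The knockdown target Gpx4 was at 161 FPKM with shNC and 96.2 FPKM with shGpx4. Chondrocyte markers were incomplete: 8 of the 18 found in the tables were measured, neither library held a value above 0 for Matn1 or Epyc, and Acan was listed at 0 in shNC and at 0.0061 FPKM in shGpx4. Other chondrocyte markers were well above the minimum, with Comp at 1666 and 1421 FPKM and Sox9 at 21.8 and 18.2 FPKM in shNC and shGpx4. The 2 that passed 1.5-fold, both higher in shGpx4, were Col2a1 (8.96 and 58.4 FPKM, log2 ratio 2.58) and Lect1 (124 and 270 FPKM, 1.12). All 12 fibroblast markers were measured, with Dcn (2808 and 5042 FPKM, 0.84) and Thy1 (18.7 and 28.6 FPKM, 0.59) at least 1.5-fold higher and Postn (948 and 327 FPKM, -1.53) lower. From the list of 19 markers of macrophages and other leukocytes, 4 were measured, and all 19 summed to 33.8 FPKM with shNC and 29.9 FPKM with shGpx4. The markers Ptprc, Cd3e, Ms4a1 and Aif1 were among those listed at 0 in both. Of 9 endothelial markers 2 were measured (sum over all 9 at 3.72 and 8.74 FPKM), and Cdh5 and Tie1 were listed at 0 in both.

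Bcl3 was the member that differed most between the libraries, and it was higher in shGpx4. The gene lies at chr7:19808462-19822824 on the minus strand (GRCm38.p6, as for all positions here). Its protein is an atypical IkB that works in the nucleus, where it binds p50 or p52 dimers and can raise or lower the transcription of their targets. Bcl3 was at 17.2 FPKM in shNC, with an exact 95% counting interval of 15.9 to 18.6, and at 29.6 FPKM in shGpx4 (27.9 to 31.4). The log2 ratio, taken here and below as FPKM + 1 in shGpx4 over FPKM + 1 in shNC, was 0.75. The exact interval of the FPKM ratio itself was 0.64 to 0.93 in log2, from at least 626 and 1166 reads. All intervals given here leave out variation from culture to culture and hold counting error alone, and reads of an amplified library are not independent molecules.

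Bcl3 was the 1 member of 10 that passed a fold of 1.5, and none passed it downwards. Among all 10997 measured genes 2.99% were at least 1.5-fold higher and 1.96% at least 1.5-fold lower. A higher ratio than that of Bcl3 was found in 217 measured genes. In bulk RNA a change in the number of cells of a type and a change in RNA per cell cannot be told apart. Of the 4 measured leukocyte markers 2 were at least 1.5-fold lower and 1 higher: Lyz2 was at 7.67 FPKM with shNC and 1.86 FPKM with shGpx4, H2-Ab1 at 11.1 and 5.35 FPKM, Cd68 at 3.90 and 3.80 FPKM and Cd14 at 9.19 and 17.1 FPKM. Log2 ratios larger in size than that of Bcl3 were also found for the chondrocyte markers Col2a1 and Lect1, the fibroblast markers Postn and Dcn and the endothelial markers Eng (0.86) and Erg (1.13). These are the extremes of their lists. Of 8 measured chondrocyte markers 4 were above 0 and 4 below, and of 12 fibroblast markers 8 and 4. Only 2 of 9 endothelial markers were measured. Erg, at 0.374 FPKM with shNC and 2.01 FPKM with shGpx4, reached the minimum mean only through shGpx4. The part of these cell types in the Bcl3 value was not tested.

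Nfkbia and Tnfaip3 were the members with the lowest ratios. Nfkbia encodes IkB-alpha, the inhibitor that is destroyed and remade fastest on stimulation, at chr12:55489409-55492647. It was at 70.6 FPKM in shNC (interval 67.6 to 73.6) and 57.3 FPKM in shGpx4 (54.8 to 59.9), so that the log2 ratio was -0.30 (interval -0.39 to -0.21). The intervals of the levels did not overlap.

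Tnfaip3 encodes A20, an enzyme that edits ubiquitin chains and shuts off signalling upstream of the IkB kinase, at chr10:19000910-19015410. Its level was 6.39 FPKM in shNC (5.54 to 7.33) and 4.98 FPKM in shGpx4 (4.26 to 5.78). The log2 ratio was -0.31 with a wider interval, -0.66 to -0.06, from at least 202 and 170 reads, and the intervals of the levels overlapped. True reads may be a multiple of these, and the intervals would then be narrower. Of all measured genes, 1138 had a lower ratio than Nfkbia and 1062 a lower ratio than Tnfaip3, so both lay well inside the spread of all genes. They were the 2 of 10 members whose counting interval lay below 0, beside 27.3% of all measured genes.

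The other classical inhibitors did not share the lower level of Nfkbia. Nfkbib encodes IkB-beta, which is degraded and resynthesised more slowly, at chr7:28758251-28766644. It was at 11.7 FPKM with shNC and 12.3 FPKM with shGpx4 (log2 ratio 0.06, interval -0.11 to 0.24). Nfkbie, the gene of IkB-epsilon at chr17:45555700-45563169, was at 6.24 and 6.81 FPKM (0.11, interval -0.19 to 0.45). Both of these intervals held 0, and that of Nfkbia lay below both.

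The subunits of the canonical dimer, Rela at chr19:5637442-5648134 and Nfkb1 at chr3:135584655-135691969, were slightly higher in shGpx4. Rela, which encodes the p65 activator, was at 33.7 FPKM with shNC and 36.4 FPKM with shGpx4 (log2 ratio 0.10, interval 0.02 to 0.20). Nfkb1, its usual partner, was at 25.9 and 28.2 FPKM (0.12, interval 0.04 to 0.20). Each differed by more than counting error alone, with FPKM ratios of 1.08 and 1.09.

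The non-canonical subunits are encoded at chr19:46300994-46312400 (Nfkb2) and chr7:19606217-19629438 (Relb). Nfkb2, the p100 precursor gene, was at 20.1 FPKM with shNC and 21.6 FPKM with shGpx4 (log2 ratio 0.10, interval 0.01 to 0.21). Relb, whose protein is held by p100 and pairs with p52, was at 20.8 and 19.5 FPKM (-0.09, interval -0.21 to 0.03). Rel, the c-Rel gene best known from lymphocytes, at chr11:23736847-23770969, was at 3.28 and 3.83 FPKM (0.18, interval -0.07 to 0.53), the lowest level of the 10 in both libraries. The Relb and Rel intervals held 0, so their direction was not resolved. Both rest on the smallest reads that fit, and if the true reads are a multiple the intervals would be narrower.

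Nfkb1, Nfkb2, Rela and Bcl3 were the 4 members whose counting interval lay above 0, beside 18.1% of all measured genes. That background depends on scaling: 1986 measured genes lay above 0 and 3001 below as deposited, against 2528 and 2284 after rescaling by a trimmed mean of log ratios. The member counts of 4 and 2 were the same on both scales. The median ratio of the 10 was 0.10, beside -0.04 over all measured genes, and 7 of the 10 were above 0, beside 4537 of the 10997 measured genes.

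**Figure D2:**
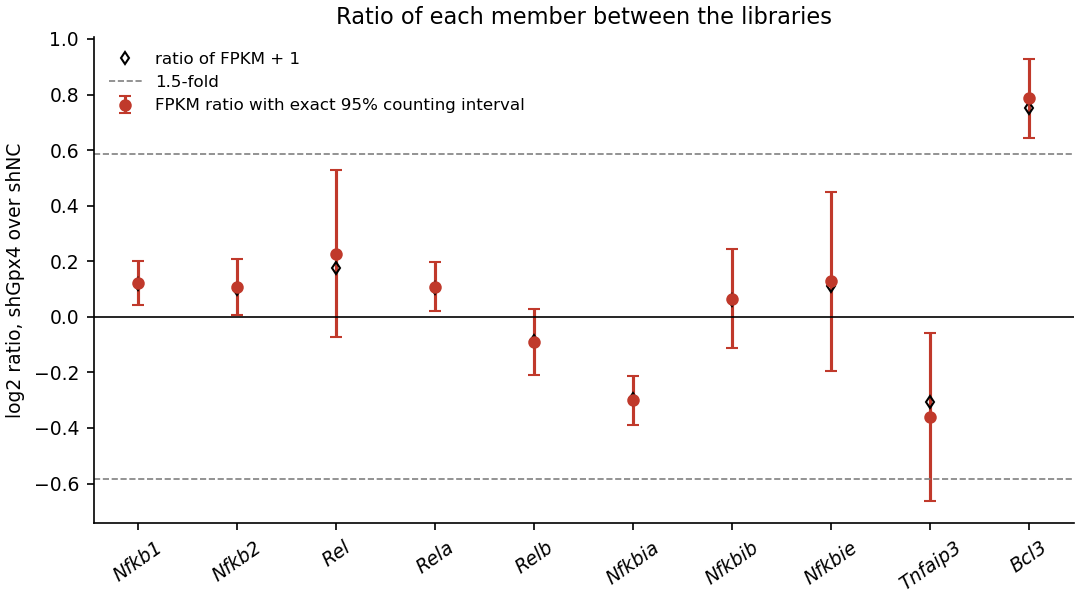
Log2 ratio of each member, shGpx4 over shNC, with 1 library per group. Red points are FPKM ratios with their exact 95% counting interval, open diamonds are ratios of FPKM + 1, and dashed lines mark 1.5-fold. The diamond of Bcl3 stands at 0.75, that of Nfkbia at -0.30 and that of Tnfaip3 at -0.31. The other 7 diamonds lie between -0.09 and 0.18.

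**Figure D3:**
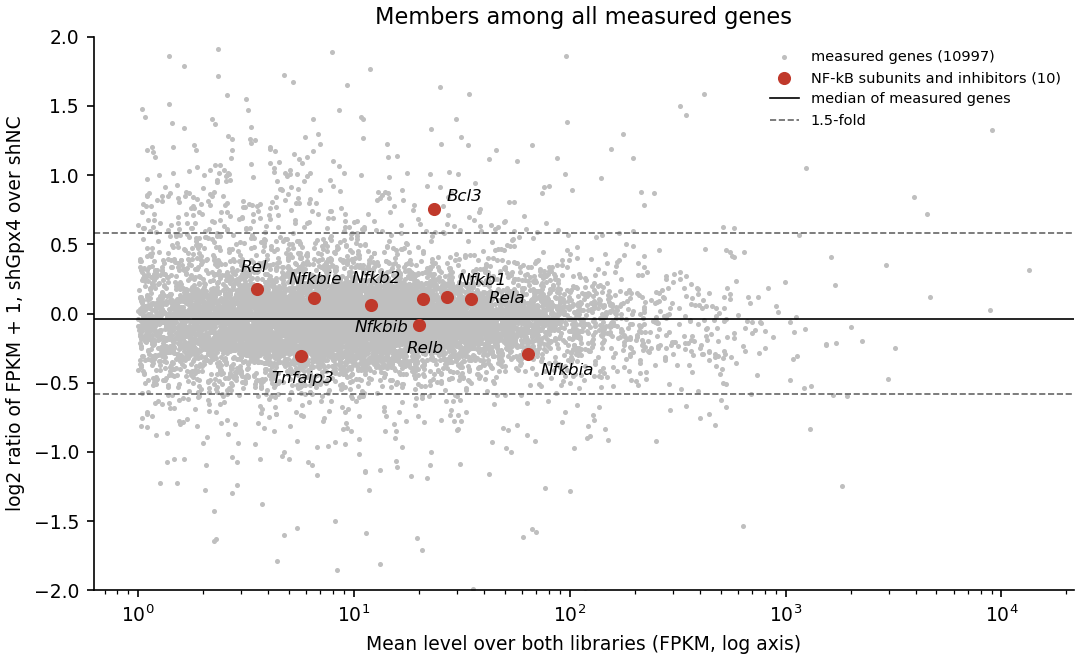
Log2 ratio of FPKM + 1 against the mean level in FPKM (log axis) for 10997 measured genes (grey) and the 10 members (red); 12 genes fall outside the vertical range shown. Bcl3 lies above the 1.5-fold line and the other 9 lie between the lines.

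Ordered by level, the inhibitor Nfkbia came first in both libraries and Rela second. In shNC the order went on with Nfkb1, Relb, Nfkb2, Bcl3, Nfkbib, Tnfaip3, Nfkbie and Rel. Within that order the counting intervals of Relb and Nfkb2 overlapped, as did those of Tnfaip3 and Nfkbie. Bcl3 moved from position 6 in shNC to position 3 in shGpx4, where its interval overlapped that of Nfkb1. Tnfaip3 moved from position 8 to position 9, where its interval overlapped that of Rel.

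**Figure D4:**
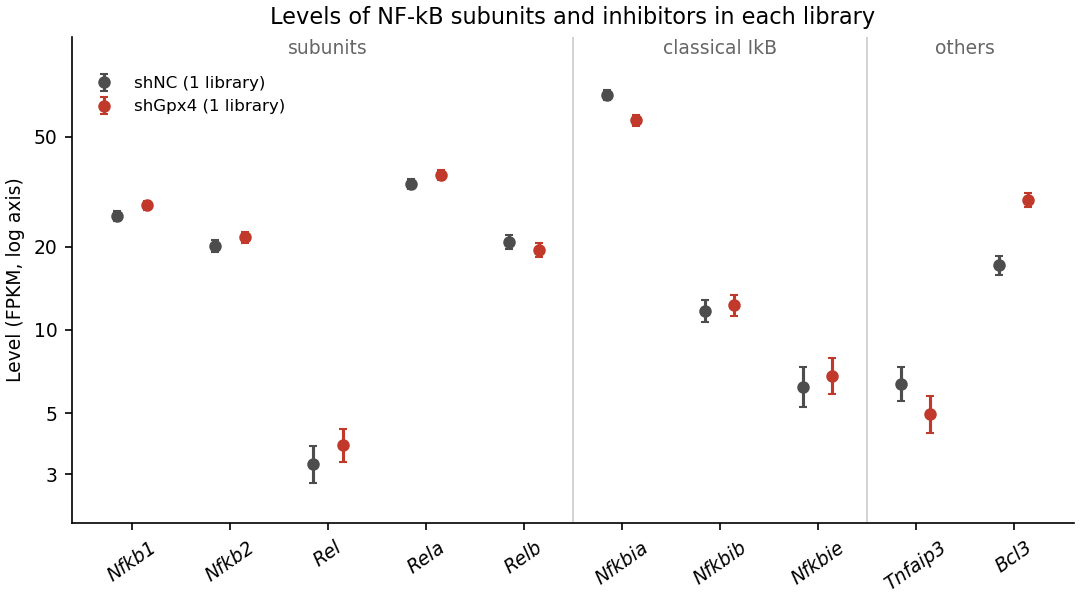
Level of each member in FPKM (log axis) in the shNC library (grey) and the shGpx4 library (red), 1 library each, with exact 95% counting intervals. Nfkbia is highest and Rel lowest in both, and the Bcl3 interval in shGpx4 (27.9 to 31.4) lies above that in shNC (15.9 to 18.6).

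Because FPKM is scaled by length, levels could be added across genes within a library. The 5 subunits summed to 103.8 FPKM with shNC and 109.5 FPKM with shGpx4. The 3 classical IkB genes summed to 88.5 and 76.4 FPKM, most of it from Nfkbia. The level of classical IkB messenger RNA per subunit messenger RNA was thus 0.853 in shNC and 0.697 in shGpx4. Nfkbia per Rela was 2.09 and 1.58, and Bcl3 per Nfkb1 was 0.663 and 1.05. Any scaling between the libraries cancels in these quotients, which describe transcripts and not proteins.

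Some members share exon bases with genes on the opposite strand in GENCODE vM21, and the strand setting of the read assignment is not given in the sources used here. Nfkb2 shares 299 bases with Psd (0.468 FPKM with shNC and 0.230 FPKM with shGpx4) and 531 with a noncoding transcript. Nfkbib shares 42 bases with Sirt2 (46.0 and 37.1 FPKM) and 314 with Ccer2, which was listed at 0 in both libraries. Bcl3 shares 161 of its 2475 exon bases with the antisense transcript Gm16175, which has no value of its own here. The other 7 members share none.

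Upstream of the subunits, the ligands and receptors with the largest ratios were 2 TNF family genes. Of 19 genes 11 were measured, with 2 at least 1.5-fold higher, none lower and a median ratio of 0.15. The shares past that fold among all measured genes were 2.99% higher and 1.96% lower. Tnfsf11, the gene of the osteoclast cytokine RANKL, was at 0.340 FPKM with shNC and 2.02 FPKM with shGpx4 (log2 ratio 1.17, interval of the FPKM ratio 1.20 to 4.28, from at least 5 and 32 reads). It reached the minimum mean only through its level in shGpx4. Tnfrsf12a, which encodes the TWEAK receptor Fn14, was at 14.7 and 30.5 FPKM (1.01, interval 0.85 to 1.27). Its ligand gene Tnfsf12 was at 11.9 and 9.58 FPKM (-0.29), and the lipopolysaccharide receptor gene Tlr4 at 19.8 and 24.0 FPKM (0.26). Il1a and Il1b were listed at 0 in both libraries, and Tnf was at 0.031 and 0.028 FPKM.

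The adaptors, ubiquitin ligases and kinases that pass the signal to IkB had ratios from -0.13 to 0.36. Of 30 genes 29 were measured and none passed 1.5-fold in either direction, with a median of 0.01. Among all measured genes 2.99% were higher and 1.96% lower by that fold, so a count of none is near the background. The largest ratios were those of Birc3, the ubiquitin ligase cIAP2 (12.6 and 16.5 FPKM, 0.36), and Map3k8, a kinase held by p105 (5.56 and 7.40 FPKM, 0.36). The TAK1 adaptor genes Tab3 (0.25) and Tab2 (0.21) followed. Of the IkB kinase subunits, the catalytic Chuk was at -0.02 and Ikbkb at -0.04, while the regulatory Ikbkg was at -0.12 with an interval below 0 (-0.20 to -0.06). The sign of the Chuk value turned (to 0.02) with centring on the median or rescaling by the 75th percentile or a trimmed mean.

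The genes of the machinery that degrades IkB had ratios from -0.24 to 0.16. All 8 genes were measured, none passed 1.5-fold and the median was -0.05. That count is near the share of all measured genes, 2.99% higher and 1.96% lower. Rbx1, the RING subunit of cullin ligases, was at 37.2 FPKM with shNC and 31.3 FPKM with shGpx4 (-0.24). Skp1a (-0.16) and Fbxw11 (-0.11), parts of the ligase that recognises phosphorylated IkB, and the NEDD8-conjugating enzyme gene Ube2m (0.16) were the next farthest from 0.

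Among 18 measured genes of 20 other IkB family members and feedback regulators, none passed 1.5-fold, and the median was 0.02. Here too the count is near the share of all measured genes, 2.99% higher and 1.96% lower. Commd1, whose protein promotes loss of NF-kB from chromatin, was at 9.29 FPKM with shNC and 6.70 FPKM with shGpx4 (-0.42). Otulin, a deubiquitinase of linear chains (-0.27), and Pdlim2, a nuclear ligase for p65 (-0.26), were also below 0. Irak3, which restrains Toll-like receptor signalling, was at 13.2 and 16.8 FPKM (0.33). Nfkbiz, another nuclear IkB gene like Bcl3, was at 22.2 and 25.8 FPKM (0.21).

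Known NF-kB target genes spread far more widely than the members. Of 36 targets 31 were measured, with a median of 0.16. At least 1.5-fold higher were 9 (29.0%, beside 2.99% of all measured genes), and 1 was at least 1.5-fold lower (3.2%, beside 1.96%). Of the 9, Il6 and Lif were below 1 FPKM in shNC and reached the minimum mean only through shGpx4. With a minimum mean of 5 FPKM, 7 were higher. Mmp9, at 0.805 FPKM with shNC and 0.179 FPKM with shGpx4, fell below the minimum and was not counted. Ratios went both ways, with 20 above 0 and 11 below. The counting interval lay above 0 for 16 (51.6%, beside 18.1% of all measured genes) and below 0 for 9 (29.0%, beside 27.3%). The matrix protease genes Mmp3 (5144 and 12910 FPKM, 1.33) and Mmp13 (102 and 252 FPKM, 1.30) had the largest ratios of FPKM + 1, followed by the cytokine genes Il6 (0.311 and 2.01 FPKM, 1.20) and Lif (0.419 and 1.79 FPKM, 0.97). With no pseudocount the order turned, with Il6 at 2.70 and Lif at 2.09 above Mmp3 (1.33) and Mmp13 (1.30). For Il6 the interval was -0.26 to 8.19 and held 0, but it rests on 1 read in shNC and 7 in shGpx4, the fewest that fit. True Il6 reads may be a multiple of these, with a narrower interval. Whether that narrower interval would hold 0 was not tested. The target at least 1.5-fold lower was the chemokine gene Cx3cl1, at 117 and 67.3 FPKM (-0.79). Some of these patterns were known when the lists were chosen, so the counts are a description.

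**Figure D5:**
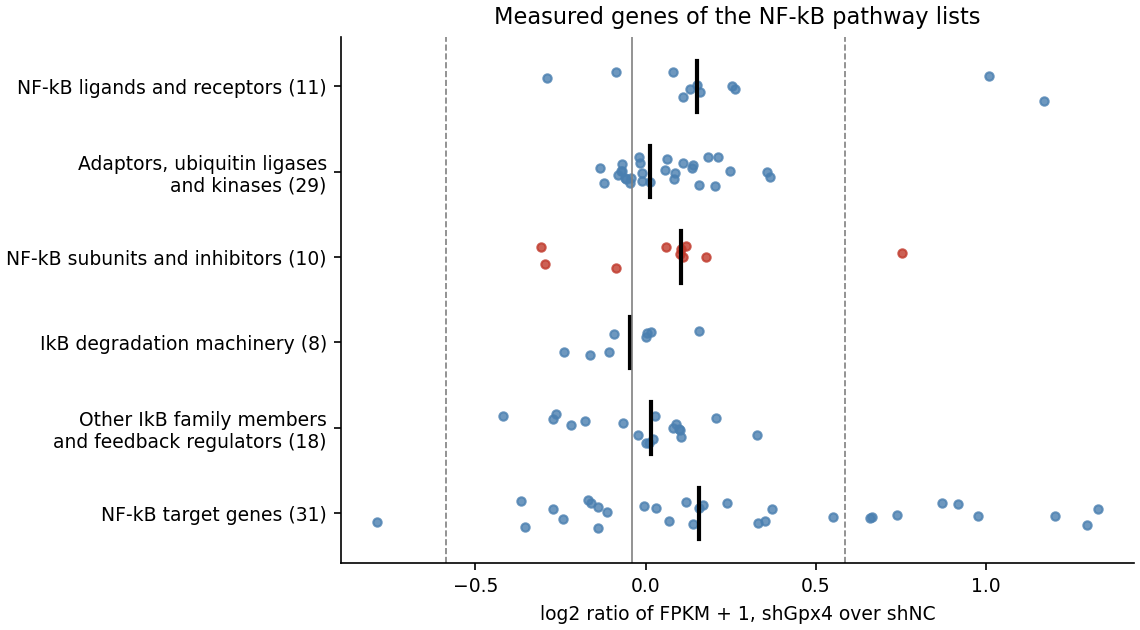
Log2 ratio of FPKM + 1 for the measured genes of 5 pathway lists (blue) and the 10 members (red), with the number measured in brackets. Thick bars are medians, dashed lines mark 1.5-fold and the grey line is the median of all measured genes; targets range from -0.79 to 1.33, while the 29 adaptors and kinases range from -0.13 to 0.36.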

How the data were processed

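Messenger RNA of 2 cultures was sequenced, and groups were taken from the treatment in the labels. The authors deposited 1 table of FPKM values per library. Trimmomatic, HISAT2, Cufflinks and the build GRCm38 are listed, without versions, in the submitters' processing notes. The unit was read from the values and from Cufflinks, as the headers name the sample only. For filters and the strand setting, the sources used here give nothing.

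Library totals were worked out from the fixed steps in the ratios of low genes. All 15153 genes above 0 in either library then gave whole reads over a whole length, within a relative 1.5e-13. These reads are the smallest that fit, and the true ones are these or a common multiple. Intervals are therefore as wide as or wider than those the true reads would give. That holds for reads only, as reads of an amplified library are not independent molecules. Intervals of levels are exact Poisson intervals and those of ratios are Clopper-Pearson intervals, at 95%.

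FPKM + 1 in shGpx4 was divided by FPKM + 1 in shNC and put on a log2 scale, with no further scaling. There were no replicates to test on, and genes were counted by a fold of 1.5. The members and lists (113 entries in 5 pathway lists, all found) were chosen with earlier results of these data known. Named genes are the members, Gpx4, and up to 4 measured genes of each pathway list with the largest absolute ratio. Bcam, Pvr, Cx3cl1, Nfkbiz, Chuk, Ikbkb, Ikbkg, the overlapping genes, Il1a, Il1b, Tnf and the cell markers were picked with their values in view. The scripts were tested on simulated data. The software was Python 3.11.15 with matplotlib 3.10.9, scipy 1.17.1, numpy 2.4.6 and pandas 2.3.3.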

Additional observations from a re-analysis of the deposited data

How the results depend on the processing

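Across 9 alternatives (pseudocounts of 0.1 and none, rescaling by the 75th percentile, a trimmed mean or a common sum of FPKM, centring on the median ratio, a minimum mean of 5, no filter, and recovered reads with 0.5 added) no member changed sign. Bcl3 ranged from 0.75 to 0.80, Nfkbia from -0.30 to -0.25 and Tnfaip3 from -0.36 to -0.27. The member counts of 1 higher, 0 lower, 4 with the interval above 0 and 2 below held under each alternative that gave a value. Interval counts and counts of the other lists under these alternatives were added after seeing the data.

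Low genes depended on the pseudocount: with 0.1, none or recovered reads, Lif went from 0.97 to between 1.86 and 2.09, Tnfsf11 from 1.17 to between 2.26 and 2.57, and Il6 from 1.20 to between 2.21 and 2.70. Some counts also moved by over 1.5 times. Ligands and receptors at least 1.5-fold higher were 1 and not 2 at a minimum mean of 5, where Tnfsf11 was filtered out, and those with the interval below 0 from 2 to 1 after centring, 75th percentile or trimmed mean rescaling. Under these 3 scalings adaptors and kinases went from 5 to 8 above 0 and from 3 to 1 below, and degradation genes from 3 to 1 below. Targets at least 1.5-fold lower were 2 with no filter and 1 otherwise. Over all measured genes, 329 higher and 216 lower became 166 and 138 at a minimum of 5. That filter leaves fewer genes to count, so the fall in counts is not a fall in share. The lower count was 359 with a pseudocount of 0.1 and 384 with none or with recovered reads. No paired analysis was possible because each group has 1 library. The smallest reads that fit were fewest for Rel, Nfkbie and Tnfaip3, at 150 to 211 each. True reads may be a multiple that differs by gene, so the members could not be ranked by depth.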

Other observations

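The genes nearest to Bcl3 on chromosome 7 were also higher in the shGpx4 library. Bcam, which encodes a laminin-binding adhesion molecule and lies 37929 bases away on one side, was at 8.09 FPKM with shNC and 12.6 FPKM with shGpx4 (log2 ratio 0.59, counting interval 0.46 to 0.83). Pvr, the poliovirus receptor gene, 80753 bases away on the other side, was at 6.95 and 11.3 FPKM (0.63, interval 0.44 to 0.96). Both are the nearest measured genes in the RefSeq annotation of GRCm38.p6, and both passed 1.5-fold, although Bcam fell short of it, at 0.58, when the libraries were scaled to a common sum of FPKM. The nearest measured neighbours of the other 9 members, 18 in all, had ratios from -0.43 to 0.13, and none passed it. Relb, 179023 bases from Bcl3 on the same chromosome, was at -0.09. These genes were looked at after the Bcl3 value was known, and what the shared direction reflects was not tested.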
